A study of Mus musculus with 24 samples.

Results

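The IFIT family was followed here through 4 mouse genes, Ifit1, Ifit2, Ifit3 and Ifit3b, in skin and bone after proton irradiation. The members were the rows whose Ensembl identifiers carry these symbols in GENCODE M21, and all 4 were found among the 55471 genes of each table. Skin and bone were taken from female mice aged 10 weeks, and polyA RNA of each was sequenced. The title of the series speaks of a sarcoma model, and the libraries used here are of skin and bone. The labels give 3 treatments in each tissue. F-PRT is taken to mean FLASH proton radiotherapy, in which the beam is delivered at a dose rate far above that of the clinic. S-PRT is taken to mean proton radiotherapy at the standard dose rate, and Untreated mice received no beam. Each treatment had 4 biological replicates in skin and 4 in bone, so that 24 libraries formed 6 groups. The sources used here do not give the strain, whether these mice carried tumours, the dose, the time after irradiation or whether a skin and a bone library came from 1 mouse. No transgene or allele is named for any of the 6 groups.

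IFIT proteins are cytosolic RNA-binding proteins built from tetratricopeptide repeats, and they restrain the translation of viral RNA. Their genes are close to silent in resting cells and are among the targets that answer most strongly to type I and type III interferon, through transcription factors that bind an interferon-stimulated response element. DNA damage by radiation is known to raise the same genes where nucleic acid reaches cytosolic sensors. Ifit1 binds RNA whose cap lacks ribose methylation. Ifit2 protects mice from several neurotropic viruses, and human IFIT3 binds IFIT1 and stabilises it. Ifit3b is a near copy of Ifit3 that mice carry beside it.

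The members lie in 1 cluster on chromosome 19 (GRCm38), all on the plus strand. Ifit2 (ENSMUSG00000045932) spans 34550694 to 34576419, Ifit3 (ENSMUSG00000074896) 34583531 to 34588731, Ifit3b (ENSMUSG00000062488) 34607970 to 34613401 and Ifit1 (ENSMUSG00000034459) 34640871 to 34650009. Ifit1bl1 and Ifit1bl2, the other Ifit genes of the annotation, lie between them on the minus strand. The promoters are shown because 3 of the members hold 2 interferon-type motifs each, spaced farther apart in Ifit3 and Ifit3b than in Ifit1. Below are 110 bases upstream of Ifit1 (chr19:34640749-34640858, plus strand, positions -140 to -31) and of Ifit3 (chr19:34583337-34583446, plus strand, positions -192 to -83). They come from the RefSeq promoter windows of build GRCm38.p6. Positions count from the RefSeq start, which differs from the GENCODE start given above. The core of the interferon-stimulated response element, 2 copies of TTTC around any 2 bases, is in capitals.
Ifit1: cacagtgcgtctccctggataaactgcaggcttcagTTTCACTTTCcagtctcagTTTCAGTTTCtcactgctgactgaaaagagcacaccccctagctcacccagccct
Ifit3: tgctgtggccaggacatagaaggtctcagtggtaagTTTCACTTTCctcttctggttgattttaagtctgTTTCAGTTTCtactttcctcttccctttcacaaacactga
The corresponding 110 bases of Ifit3b (chr19:34607733-34607842, plus strand, positions -224 to -115) differ from those of Ifit3 at 0 positions. This core was searched on both strands, overlapping matches included, in windows of 250 bases before to 50 bases after each start. Ifit1, Ifit3 and Ifit3b held 2 matches each on the gene strand, and both windows of Ifit2 held 0. Of all 32851 promoter windows, 3.44% held at least 1 match and 0.225% at least 2. The 2 matches of Ifit1 also lie in the window of Ifit1bl2, which starts nearby on the other strand. A match describes the letters only, and no binding was measured here.

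The near identity of Ifit3 and Ifit3b also bears on their values. Their longest transcripts were 97.8% identical over 1700 aligned positions, and 18.5% of the 150-base windows of Ifit3 and 16.0% of those of Ifit3b occur in the other gene, against 1.2% for Ifit1 and 0.0% for Ifit2. RSEM divides such reads between the copies by estimate, so the split between Ifit3 and Ifit3b is uncertain. Ifit3b took 21.9%, 19.6% and 9.72% of the expected counts of the pair in skin S-PRT 2, 3 and 4 and between 23.6% and 34.7% in each other library. Ifit1 and Ifit1bl2 start close to each other on opposite strands. Whether the libraries keep strand is not stated, and without it reads between the annotated ends of these genes could not be assigned to either.

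Total expected counts ran from 16418026 to 22088370 per skin library and from 10909700 to 17361478 per bone library. Keratinocyte markers summed to 1822 to 7530 TPM in skin and to 17.5 to 45.5 TPM in bone, and osteoblast markers to 679 to 3594 TPM in bone and at most 0.80 TPM in skin, as the tissue labels say. Skin S-PRT 4 stood apart: its 6 endothelial markers summed to 1.25 TPM, against 11.1 to 52.1 TPM in the other skin libraries, and its 6 macrophage and 5 fibroblast markers were the lowest of the skin libraries at 23.8 and 54.5 TPM. The skin tests of the members are therefore also given without it. Skin S-PRT 1 differed as well: its 5 skeletal muscle markers summed to 7227 TPM, against at most 1679 TPM in any other skin library. Over all genes it differed from S-PRT 2 and S-PRT 3 by a chi-square of 85.5 and 98.0 for each degree of freedom, against 28.3 between those libraries. Among the baselines, skin Untreated 1 differed from the other 3 untreated skin libraries over all genes by a chi-square of 193 to 210 for each degree of freedom, against 22.2 to 30.1 among those 3, and held the highest fibroblast (669 TPM), macrophage (124 TPM) and keratinocyte (5247 TPM) sums of its group. Bone Untreated 1 likewise stood at 72.9 to 104 from the other untreated bone libraries, against 9.71 to 28.0 among them. Without skin Untreated 1 the number of members past the test was 1 in place of 2 for both beams in skin and unchanged in each other comparison, and without bone Untreated 1 it was unchanged in each comparison it enters.

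TPM, which corrects for transcript length, was used to compare levels between genes. Ifit3 was the most abundant member in every irradiated group, at 31.1 ± 4.81 TPM in bone F-PRT, 13.8 ± 3.70 in bone S-PRT, 3.70 ± 0.55 in skin F-PRT and 3.95 ± 2.53 in skin S-PRT (mean ± SD, n = 4). Ifit1 followed, at 19.9 ± 2.42, 9.46 ± 2.16, 2.81 ± 1.05 and 3.31 ± 2.54 TPM in the same groups. Ifit2 came next at 16.6 ± 2.54, 7.89 ± 1.75, 1.72 ± 0.57 and 2.13 ± 1.44 TPM, and Ifit3b was lowest at 9.54 ± 2.54, 4.42 ± 1.15, 1.09 ± 0.19 and 1.13 ± 1.05 TPM. Within each irradiated library of both tissues the members kept this order. Taken over libraries, the range of Ifit3 in bone F-PRT lay above that of Ifit1, those of Ifit1 and Ifit2 overlapped, and Ifit3b lay below Ifit2. In the other irradiated groups the ranges of neighbours in this order overlapped, except that Ifit3b lay below Ifit2 in bone S-PRT and skin F-PRT. Untreated bone had another order, with Ifit1 at 4.35 ± 2.07, Ifit3 at 3.54 ± 1.65, Ifit2 at 3.26 ± 0.85 and Ifit3b at 1.41 ± 0.84 TPM, and neighbours in this order overlapped. In untreated skin Ifit3 averaged 1.3 ± 0.57, Ifit1 0.82 ± 0.27, Ifit2 0.54 ± 0.13 and Ifit3b 0.48 ± 0.21 TPM, again with overlap between neighbours. Within single untreated libraries of either tissue the order varied. Ifit3 thus made up 38.5% to 42.0% of the summed family TPM in bone F-PRT and 34.0% to 43.7% in bone S-PRT, against 23.9% to 29.3% in untreated bone, while its share in skin ran from 30.8% to 48.5% over all groups.

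Across groups, each member stood highest in bone F-PRT, then in bone S-PRT, and lowest in untreated skin by group mean. The summed TPM of the family was 65.6 to 87.0 in bone F-PRT and 24.8 to 42.6 in bone S-PRT, groups that did not overlap. Skin F-PRT at 6.79 to 11.9, skin S-PRT at 2.02 to 17.7 and untreated bone at 6.52 to 19.1 overlapped, and untreated skin ran from 2.24 to 4.64. On the TPM scale the median of all tested genes was itself higher after irradiation, by 0.71 log2 units in bone F-PRT and 0.64 in bone S-PRT against Untreated, and by 0.22 and 0.29 in skin. Changes are therefore given on TMM-scaled CPM, which are counts relative to library size, where that median moved by at most 0.02, with log2 changes and Benjamini-Hochberg adjusted p-values from edgeR's quasi-likelihood F test over all genes of a tissue. The threshold was an adjusted p under 0.05.

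**Figure D1:**
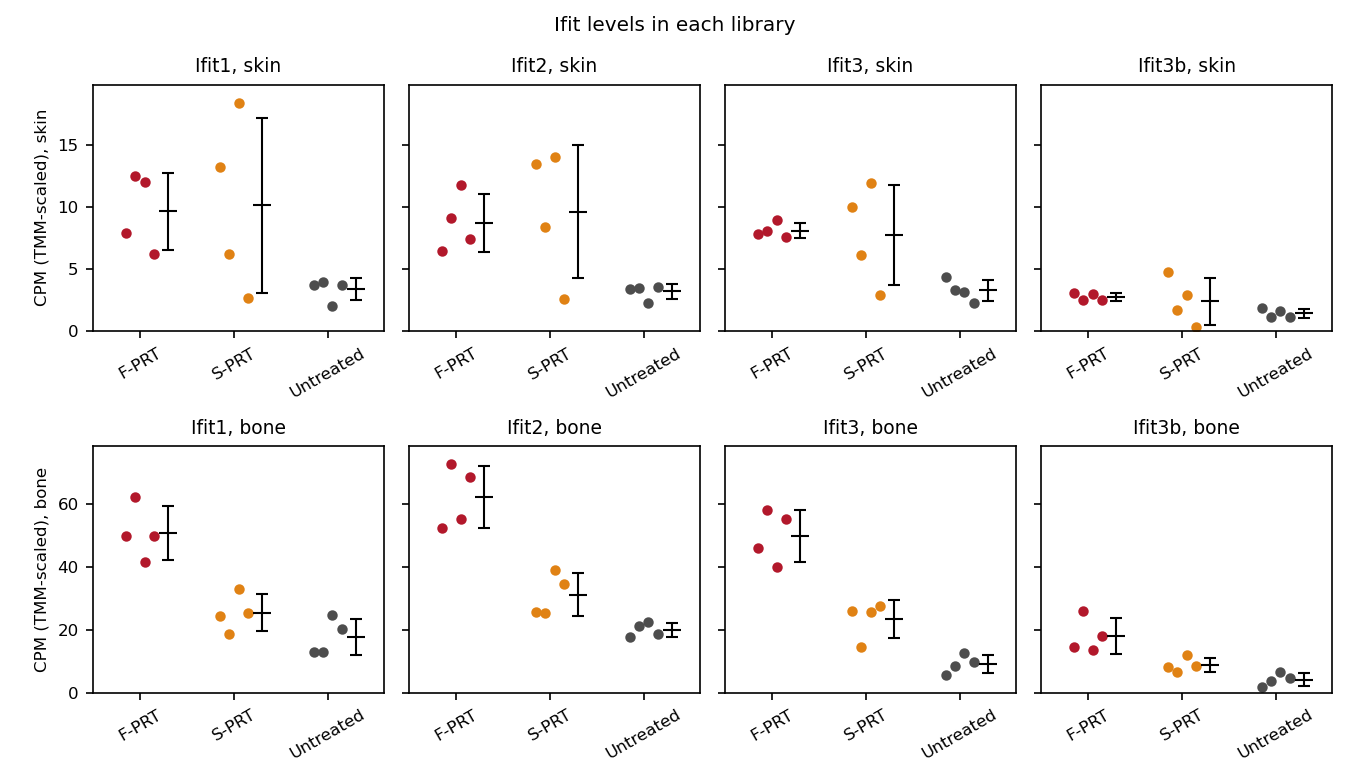
TMM-scaled CPM (vertical axis) of the 4 Ifit genes in each of the 24 libraries, with skin above and bone below; every point is 1 library and the bars give the mean ± SD of 4. In bone the F-PRT points of every member lie above all S-PRT points, while in skin the S-PRT points span the widest range, from 2.63 to 18.4 CPM for Ifit1.

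In bone after F-PRT all 4 members rose against untreated bone, by 2.86-fold to 5.43-fold, and the groups of no member overlapped, as in 15% of all genes in this direction. Ifit3 rose most. Its level was 46.2, 58.1, 40.0 and 55.2 CPM in F-PRT bone, against 5.42, 8.54, 12.5 and 9.78 CPM in untreated bone, a log2 change of 2.44 (SE 0.24, adjusted p = 8.88e-06). Ifit3b, its near copy, stood at 14.3, 25.9, 13.4 and 18.04 CPM in F-PRT bone, against 1.74, 3.58, 6.40 and 4.69 CPM in untreated bone (log2 2.09, SE 0.32, adjusted p = 0.000278). With the counts of Ifit3 and Ifit3b added together the log2 change was 2.35 (adjusted p = 2.03e-05), a rise that does not turn on how reads were divided between the copies.

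Ifit2 had 52.4, 72.7, 55.3 and 68.6 CPM in F-PRT bone, against 17.6, 21.2, 22.5 and 18.6 CPM in untreated bone. Its lowest F-PRT library was above 2 times its highest untreated library, and the log2 change was 1.64 (SE 0.16, adjusted p = 8.37e-06). Ifit1, the binder of incompletely capped RNA, had 49.9, 62.3, 41.5 and 49.8 CPM in F-PRT bone, against 12.8, 13.03, 24.6 and 20.2 CPM in untreated bone (log2 1.52, SE 0.22, adjusted p = 0.000195). That 4 of 4 members rose compares with 15.5% of the 18848 genes tested in bone that rose in the same comparison. All 4 calls stood when any 1 of the 12 bone libraries was left out.

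After S-PRT the same members were higher than in untreated bone by smaller amounts, and 3 of 4 passed the test, against 13.3% of all genes. Ifit3 had 25.8, 14.4, 25.7 and 27.5 CPM in S-PRT bone, above each of the untreated values given before (log2 1.35, SE 0.24, adjusted p = 0.000987). Ifit3b had 7.99, 6.42, 11.9 and 8.60 CPM, also without overlap though its lowest library lay next to the highest untreated one (log2 1.06, SE 0.32, adjusted p = 0.0248). Its call was lost with limma voom (log2 0.82, adjusted p = 0.0711), without S-PRT 3 (0.0741) and without Untreated 2 (0.0685). Ifit2 had 25.6, 25.4, 39.0 and 34.6 CPM in S-PRT bone (log2 0.64, SE 0.16, adjusted p = 0.00875). Ifit1 overlapped, with 24.5, 18.7, 33.1 and 25.5 CPM in S-PRT bone and up to 24.6 CPM in untreated bone, and did not pass (log2 0.52, SE 0.22, adjusted p = 0.0962). It passed without S-PRT 2 (adjusted p = 0.0412) or Untreated 3 (0.0288). Apart from Ifit1 no member overlapped between these groups, against 12.1% of all genes without overlap in this direction. F-PRT and S-PRT were set against the same 4 untreated libraries, so the values of these comparisons are not independent of each other. With both beams averaged, 4 of 4 members rose (17.3% of all genes), with log2 changes of 1.02 for Ifit1, 1.14 for Ifit2, 1.90 for Ifit3 and 1.57 for Ifit3b.

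Summed TPM of several marker lists differed between irradiated and untreated bone. On that scale the median of all tested genes was itself higher by 0.71 log2 units after F-PRT and 0.64 after S-PRT. The sums below are not corrected for this shift. The 6 macrophage markers summed to 802 to 1006 TPM in F-PRT bone and 431 to 835 TPM in S-PRT bone, against 80.1 to 277 TPM in untreated bone. The sum of the 5 neutrophil markers ran the other way, at 449 to 567 TPM in F-PRT and 279 to 894 TPM in S-PRT, against 935 to 9153 TPM in Untreated. S100a8 made up most of it in untreated bone (7124 of 9153 TPM in Untreated 4). Its markers Mpo (127 to 156 and 76.5 to 196 TPM, against 82.4 to 481 TPM) and Elane (45.2 to 65.05 and 26.5 to 72.3 TPM, against 39.0 to 276 TPM) overlapped. The osteoblast sum (2356 to 3594 and 2957 to 3055 TPM, against 679 to 1314 TPM) and the fibroblast sum (3079 to 5391 and 4252 to 4940 TPM, against 1423 to 1888 TPM) were higher after both beams without overlap. The endothelial sum was too (119 to 141 and 101 to 138 TPM, against 51.2 to 82.3 TPM), but its marker Vwf went the other way, with 8.21 to 12.3 and 6.88 to 11.3 TPM, against 18.9 to 25.6 TPM. Col1a1 made up most of the fibroblast sum in every bone library, with 4844 of 5391 TPM in F-PRT 4. The other fibroblast markers were also higher after both beams without overlap. The T and NK sum was 46.8 to 71.0 TPM in F-PRT and 33.3 to 56.1 TPM in S-PRT, against 10.9 to 42.0 TPM in Untreated, without overlap after F-PRT. Siglech, a marker of plasmacytoid dendritic cells, was at 3.07 to 6.70 TPM in F-PRT and 2.83 to 5.14 TPM in S-PRT, against 3.09 to 13.1 TPM in Untreated. The summed list of that cell type is not used, since Cox6a2, which skeletal muscle also expresses, made up most of it in irradiated bone (221 of 231 TPM in F-PRT 3). Skeletal muscle markers overlapped, at 736 to 4631 TPM in F-PRT and 987 to 2809 TPM in S-PRT, against 86.4 to 1262 TPM in Untreated. Erythroid markers (9018 to 13587 and 8476 to 13608 TPM, against 11276 to 24459 TPM) and B cell markers (107 to 159 and 70.8 to 160 TPM, against 40.4 to 161 TPM) overlapped between the irradiated and untreated libraries. No marker named or summed here was at 0 in any bone library. Their part in the Ifit changes was not tested, and in bulk tissue a change in the number of cells of a type and a change in RNA per cell cannot be told apart.

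Set directly against S-PRT, F-PRT bone had about 2 times the level of every member. The log2 changes were 1.00 for Ifit1 (95% interval 0.54 to 1.46), 1.00 for Ifit2 (0.66 to 1.33), 1.09 for Ifit3 (0.61 to 1.57) and 1.03 for Ifit3b (0.39 to 1.68). In CPM the means were 50.9 ± 8.59 in F-PRT and 25.4 ± 5.91 in S-PRT for Ifit1, and 62.2 ± 9.91 in F-PRT and 31.1 ± 6.78 in S-PRT for Ifit2. For Ifit3 they were 49.9 ± 8.31 in F-PRT and 23.4 ± 6.01 in S-PRT, and for Ifit3b 17.9 ± 5.67 in F-PRT and 8.74 ± 2.32 in S-PRT. Each member had its 4 F-PRT libraries above its 4 S-PRT libraries without overlap, as did 1.81% of all genes. No member passed the test over all genes, however, with adjusted p of 0.611 for Ifit1, 0.123 for Ifit2, 0.611 for Ifit3 and 1.0 for Ifit3b. Before adjustment p was 0.000422, 1.96e-05, 0.00028 and 0.0039 for the same genes, which placed them 13th, 3rd, 7th and 67th of 18848 genes, and 3.36% of all genes had an unadjusted p under 0.05.

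Only 1 gene, 0.00531% of those tested, passed between the beams in bone: Slfn4, an interferon-inducible Schlafen gene of myeloid cells (log2 1.01, SE 0.13, adjusted p = 0.043). DESeq2 called 21 genes, all higher in F-PRT, among them Ifit1 (adjusted p = 0.0113), Ifit2 (1.4e-05) and Ifit3 (0.006). Without the filter on low counts edgeR called 11 genes, again with Ifit1 (0.0337), Ifit2 (0.00466) and Ifit3 (0.0185), and limma voom with quality weights called 1 gene and no member. The size of the difference depended little on S-PRT 2, the S-PRT bone library with the least of every member and the lowest macrophage sum: without it the log2 changes were 0.88 for Ifit1, 0.91 for Ifit2, 0.92 for Ifit3 and 0.91 for Ifit3b. Macrophage sums of the beams overlapped, at 802 to 1006 TPM in F-PRT and 431 to 835 TPM in S-PRT bone, as did the endothelial, neutrophil, fibroblast, osteoblast, T and NK and skeletal muscle sums, and their part in the difference was not tested.

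**Figure D2:**
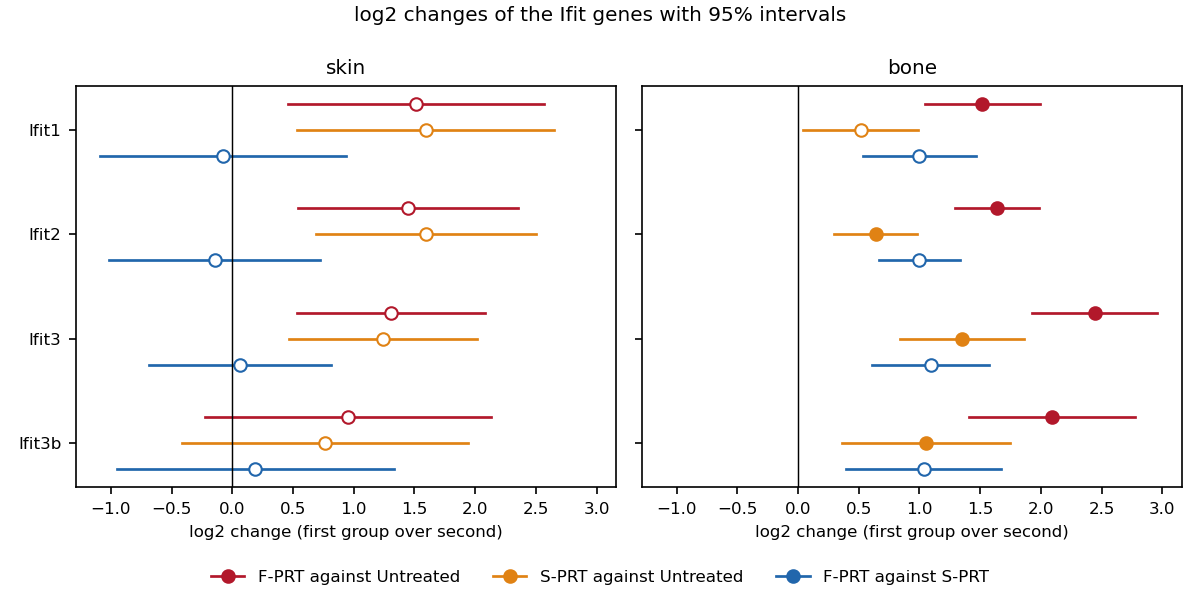
log2 changes (horizontal axis, first group over second) of the 4 Ifit genes in skin and bone with 95% intervals from edgeR; filled points passed at an adjusted p under 0.05 and open points did not. In bone the F-PRT against S-PRT points lie between 1.00 and 1.09, and in skin between -0.15 and 0.19.

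In skin every member had a lower mean than in bone of the same treatment, and no member passed the test after either beam alone. After F-PRT the members were 1.94-fold to 2.86-fold higher on average than in untreated skin, and in none did the groups overlap, as in 8.02% of the 19038 genes tested. Ifit3 was tightest, with 7.83, 8.06, 8.94 and 7.59 CPM in F-PRT skin, against 4.34, 3.34, 3.15 and 2.25 CPM in untreated skin (log2 1.31, SE 0.36, adjusted p = 0.087). Ifit1 had 7.88, 12.5, 12.01 and 6.23 CPM in F-PRT skin, against 3.75, 3.95, 2.06 and 3.71 CPM in untreated skin (log2 1.52, SE 0.49, adjusted p = 0.155). Ifit2 had 6.50, 9.15, 11.8 and 7.45 CPM in F-PRT skin, against 3.42, 3.45, 2.30 and 3.59 CPM in untreated skin (log2 1.45, SE 0.42, adjusted p = 0.107). So no member passed the test, against 1.0% of all genes that rose. Ifit3b, at 2.76 ± 0.31 CPM in F-PRT skin and 1.42 ± 0.38 CPM in untreated skin, was nearest to no change (log2 0.95, SE 0.54, adjusted p = 0.452). Without skin S-PRT 4, which shares in the estimate of the spread, Ifit1 (adjusted p = 0.0196), Ifit2 (0.00361) and Ifit3 (0.00553) passed, and 1477 genes were called in place of 455.

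After S-PRT the skin libraries scattered. Ifit1 had 13.3, 6.26, 18.4 and 2.63 CPM in S-PRT skin (log2 1.59 against Untreated, SE 0.49, adjusted p = 0.095). Ifit2 had 13.5, 8.41, 14.1 and 2.58 CPM (log2 1.60, SE 0.42, adjusted p = 0.0522). Ifit3 had 10.0, 6.15, 11.9 and 2.87 CPM (log2 1.24, SE 0.36, adjusted p = 0.076). In each of them S-PRT 4 lay within the untreated range and the other 3 libraries above it. Ifit3b had 4.73, 1.69, 2.88 and 0.293 CPM, with 2 libraries above the untreated maximum of 1.85 CPM (log2 0.77, SE 0.54, adjusted p = 0.528). No member passed, against 1.83% of all genes that rose. Without S-PRT 4 the means over 3 libraries were 12.6 ± 6.11 CPM for Ifit1, 11.99 ± 3.12 for Ifit2, 9.36 ± 2.93 for Ifit3 and 3.10 ± 1.53 for Ifit3b. All 4 members passed in that fit (adjusted p = 0.00628, 0.000754, 0.00266 and 0.0458). It keeps S-PRT 1, the library with the highest skeletal muscle sum and the most Ifit3b. On leaving out S-PRT 1 alone, Ifit3b had an adjusted p of 0.936.

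With both beams averaged, Ifit2 (2.87-fold, log2 1.52, SE 0.38, adjusted p = 0.0354) and Ifit3 (2.42-fold, log2 1.27, SE 0.32, adjusted p = 0.0383) rose in skin, 2 of 4 members against 2.01% of all genes. Ifit1 (log2 1.55, adjusted p = 0.0637) and Ifit3b (log2 0.86, adjusted p = 0.377) did not pass. These calls were fragile: Ifit2 lost its call on leaving out any skin library other than S-PRT 4, and Ifit3 on leaving out any other than S-PRT 4 and Untreated 1, with adjusted p up to 0.125 and 0.123. Without S-PRT 4 all 4 members passed, with log2 changes of 1.71 for Ifit1, 1.68 for Ifit2, 1.44 for Ifit3 and 1.05 for Ifit3b.

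Between the beams the skin values lay near each other. The log2 change of F-PRT against S-PRT was -0.08 for Ifit1 (95% interval -1.09 to 0.93), -0.15 for Ifit2 (-1.01 to 0.72), 0.06 for Ifit3 (-0.69 to 0.81) and 0.19 for Ifit3b (-0.95 to 1.33). Every adjusted p was 0.999, and of 19038 genes edgeR called 0 (0.0%), with 2.74% at an unadjusted p under 0.05, while DESeq2 called 2 genes and no member. Each of the 4 intervals includes 0 and is wider than 1 log2 unit. Without skin S-PRT 4 the changes were -0.40 for Ifit1, -0.47 for Ifit2, -0.21 for Ifit3 and -0.18 for Ifit3b, with every adjusted p again 0.999. The macrophage markers in skin summed to 105 to 204 TPM in F-PRT and 23.8 to 234 TPM in S-PRT, against 25.7 to 124 TPM in Untreated, and the endothelial markers to 32.8 to 43.1 and 1.25 to 52.1 TPM, against 11.1 to 33.0 TPM. Fibroblast markers summed to 681 to 1036 TPM in F-PRT and 54.5 to 1041 TPM in S-PRT, against 126 to 669 TPM in Untreated. No marker of these 3 lists was at 0 in any skin library, and their part in the skin values was not tested. The sums are not corrected for the median of all tested genes, higher in TPM by 0.22 log2 units after F-PRT and 0.29 after S-PRT.

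Differences between the tissues were tested over all 24 libraries, first between the untreated groups and then as interactions of tissue with treatment. Untreated skin stood below untreated bone for every member, with log2 changes of -2.29 for Ifit1 (adjusted p = 4.68e-05), -2.54 for Ifit2 (1.03e-06), -1.37 for Ifit3 (0.001) and -1.45 for Ifit3b (0.0115), 4 of 4 against 32.6% of the 20754 genes tested that were lower. Ifit3b lost this call without bone Untreated 3 (adjusted p = 0.0548). The F-PRT effect in skin minus that in bone was -0.04 for Ifit1, -0.21 for Ifit2, -1.17 for Ifit3 and -1.17 for Ifit3b, with 0 of 4 past the test (10.7% of all genes passed in either direction, and Ifit3 had an unadjusted p of 0.0168). Without skin S-PRT 4 the effect on Ifit3 differed (adjusted p = 0.0312). The S-PRT effect in skin minus that in bone was 1.05 for Ifit1, 0.94 for Ifit2, -0.13 for Ifit3 and -0.31 for Ifit3b, again with 0 of 4 past the test (9.45% of all genes). Without skin S-PRT 4 this effect was larger in skin for Ifit1 (adjusted p = 0.0431) and Ifit2 (0.00742).

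The log2 change of F-PRT against S-PRT in skin minus that in bone was -1.09 for Ifit1, -1.16 for Ifit2, -1.04 for Ifit3 and -0.87 for Ifit3b. Unadjusted p was 0.0559, 0.016, 0.0264 and 0.18, and every adjusted p was 1.0. With 0 of 20754 genes past the test by edgeR (0.0%), 3.52% at an unadjusted p under 0.05 and 1 gene by DESeq2, a difference between the tissues in how the beams compare was not shown for any member. Without skin S-PRT 4 these values were -1.41, -1.47, -1.31 and -1.22 for the same genes, with adjusted p of at least 0.575.

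The family was then read beside the rest of the interferon pathway in bone. Ligands were hardly measured: of 8 interferon genes only Ifnk, an interferon known from keratinocytes, passed the filter on low counts, with means of 0.39 ± 0.25 CPM after F-PRT and 0.44 ± 0.27 CPM after S-PRT, against 0.70 ± 0.12 CPM in untreated bone, and it did not pass in any comparison. Mean Ifnb1 was listed at 0 TPM in F-PRT and S-PRT bone and 0.02 TPM in untreated bone. Ifng, the type II interferon, was below the filter and not tested, with means of 0.548 TPM in F-PRT and 0.29 TPM in S-PRT, against 0.042 TPM in untreated bone. Among 9 receptors and kinases 3 rose and 2 fell after F-PRT, and 1 rose and 2 fell after S-PRT, while 15.5% and 13.3% of all genes rose and 17.2% and 15.2% fell. Ifnlr1, the receptor chain particular to type III interferon, averaged 1.47 ± 0.26 CPM after F-PRT and 1.499 ± 0.51 CPM after S-PRT, against 19.6 ± 3.95 CPM in untreated bone (log2 -3.73 and -3.70, adjusted p = 3.04e-07 and 3.09e-07). Jak2, a receptor kinase, fell to 98.2 ± 4.22 CPM in F-PRT, against 123 ± 6.69 CPM in Untreated (adjusted p = 0.0135). In mean TPM, not corrected for the shift of all genes, Jak2 was higher in F-PRT than in untreated bone (23.6 against 17.7). Ifngr1, a chain of the interferon gamma receptor, rose 1.47-fold after F-PRT (adjusted p = 0.0155).

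Of 9 transcription factors of the pathway 4 rose after F-PRT, where 15.5% of all genes did, and 1 after S-PRT, a share near the 13.3% of all genes. Irf7, which amplifies interferon production, had 140 ± 15.7 CPM in F-PRT and 72.2 ± 16.9 CPM in S-PRT, against 49.8 ± 15.4 CPM in untreated bone, and rose after F-PRT (log2 1.49, adjusted p = 0.0002). Stat2 rose 1.83-fold after F-PRT (adjusted p = 6.73e-05) and was the factor of the list that rose after S-PRT (1.28-fold, adjusted p = 0.0274). Of 9 nucleic acid sensors 6 rose after F-PRT and 5 after S-PRT, against the same 15.5% and 13.3% of all genes. Tlr3, the endosomal sensor of double-stranded RNA, had 32.1 ± 5.78 CPM in F-PRT and 23.96 ± 2.31 CPM in S-PRT, against 8.49 ± 0.75 CPM in Untreated. The cytosolic sensors Zbp1 (3.76-fold and 2.43-fold) and Ifih1 (1.74-fold and 1.26-fold) rose after F-PRT and S-PRT. Of 6 brakes on the pathway 5 rose after F-PRT, among them Usp18 (2.21-fold, adjusted p = 0.000258) and Trex1 (2.03-fold, 0.00904), against 15.5% of all genes. After S-PRT 1 of the 6 rose, Socs3 (2.06-fold, adjusted p = 0.000943), a share near the 13.3% of all genes.

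Other antiviral target genes resembled the Ifit genes in part. Of 30, 19 rose and 2 fell after F-PRT, with a median log2 change of 0.85, against -0.01 over all genes, and 11 rose and 3 fell after S-PRT, with a median of 0.40. Of all genes 15.5% rose and 17.2% fell after F-PRT, and 13.3% rose and 15.2% fell after S-PRT. Ifi44 rose 4.70-fold after F-PRT and 2.22-fold after S-PRT, Phf11d 4.08-fold and 2.45-fold, and the GTPase gene Mx1 3.05-fold and 1.88-fold. The fallers were Isg20, an exonuclease, and Rsad2, which encodes viperin, after F-PRT (log2 -1.08 and -0.78, adjusted p = 0.00021 and 0.00324), and the same genes (log2 -0.94 and -1.15, adjusted p = 0.000656 and 0.000249) and Cmpk2 (log2 -0.47, adjusted p = 0.0294) after S-PRT. They are interferon targets named after their values were seen, and on the CPM scale they went the opposite way to the Ifit genes. In mean TPM, not corrected for the shift of all genes, Cmpk2 was higher in S-PRT than in untreated bone (16.2 against 14.2). Isg20 (68.9 and 70.3, against 87.0) and Rsad2 (50.8 and 37.2, against 52.5) were lower in TPM after F-PRT and S-PRT. In F-PRT against S-PRT 0 of the 30 passed, 29 had a positive log2 change and the median was 0.57, against 0.01 over all genes, and 21 of 30 had all F-PRT libraries above all S-PRT libraries (1.81% of all genes). Apart from Ifi44, with 1.079, these changes were at most 0.92, below the 1.00 to 1.09 of the 4 Ifit genes.

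**Figure D3:**
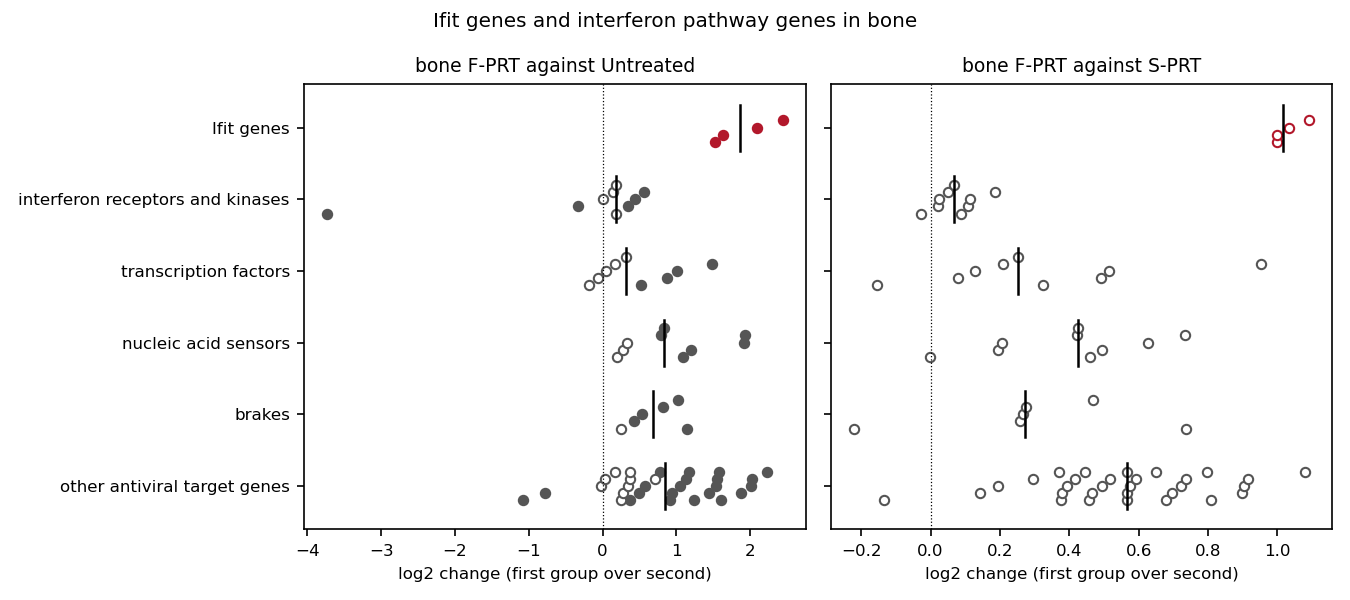
log2 changes in bone (horizontal axes, first group over second) of the 4 Ifit genes in red and of the interferon pathway lists in grey, 1 point per gene; filled points passed at an adjusted p under 0.05 and the vertical bars mark the medians. The antiviral targets have medians of 0.85 for F-PRT against Untreated and 0.57 for F-PRT against S-PRT, and Ifnlr1 is the point at -3.73.

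In skin 0 of the 30 antiviral targets passed against Untreated or between the beams, where 1.0% of all genes rose after F-PRT, 1.83% after S-PRT and 2.01% with both beams averaged, so this count is near that of all genes. Their median log2 change was 0.67 for F-PRT and 0.66 for S-PRT against Untreated, with 27 and 28 positive, and 0.04 between the beams with 18 positive. In 14 of the 30 all F-PRT libraries lay above all untreated libraries, against 8.02% of all genes. After S-PRT, where the share of all genes is not given here, this held for 1 of the 30. Mx1 had 2.73 ± 0.47 CPM in F-PRT and 2.47 ± 1.22 CPM in S-PRT, against 1.28 ± 0.39 CPM in untreated skin (adjusted p = 0.177 and 0.196). Bst2, which tethers budding virus, had 6.91 ± 0.71 and 7.44 ± 2.73 CPM, against 4.15 ± 0.87 CPM in untreated skin (0.219 and 0.11). Among the sensors, Zbp1 had 9.71 ± 1.43 and 12.2 ± 7.21 CPM, against 5.30 ± 0.57 CPM (0.303 and 0.107). No receptor, transcription factor, sensor or brake of the lists passed in skin by edgeR, which is likewise near the share over all genes.

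The neighbours of the members in the cluster did not move as one block in bone. Ifit1bl1, between Ifit3 and Ifit3b, had 8.47, 12.2, 8.82 and 8.77 CPM in F-PRT and 5.08, 3.73, 7.18 and 6.005 CPM in S-PRT, against 1.74, 2.59, 3.13 and 3.48 CPM in untreated bone, and rose after both beams (log2 1.78 and 0.98, adjusted p = 0.000109 and 0.00821). Ifit1bl2, between Ifit3b and Ifit1, fell after both: it had 1.59, 1.36, 1.58 and 2.49 CPM in F-PRT and 0.628, 0.76, 1.15 and 1.90 CPM in S-PRT, against 3.04, 7.85, 10.0 and 9.78 CPM in untreated bone (log2 -2.14 and -2.80, adjusted p = 0.000892 and 0.000206). Of all genes 17.2% fell after F-PRT and 15.2% after S-PRT. The untreated library with the least Ifit1bl2, Untreated 1, also had the lowest neutrophil sum of its group. That sum was 935 TPM, against 5351 to 9153 TPM in the other 3, and the relation was not tested. Lipa, a lysosomal lipase gene next to the cluster, rose 2.25-fold after F-PRT and 1.69-fold after S-PRT (adjusted p = 0.000795 and 0.0139). In skin both Ifit1bl genes were below the filter on low counts, with mean levels of 0.228 and 0.29 TPM for Ifit1bl1 and 0.055 and 0.04 TPM for Ifit1bl2 in F-PRT and S-PRT, against 0.08 and 0.03 TPM in Untreated. Pank1, farther along the chromosome, fell to 28.7 ± 4.53 CPM in F-PRT and 24.8 ± 1.85 CPM in S-PRT, against 56.4 ± 5.95 CPM in untreated skin (adjusted p = 0.00139 and 0.000233).

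**Figure D4:**
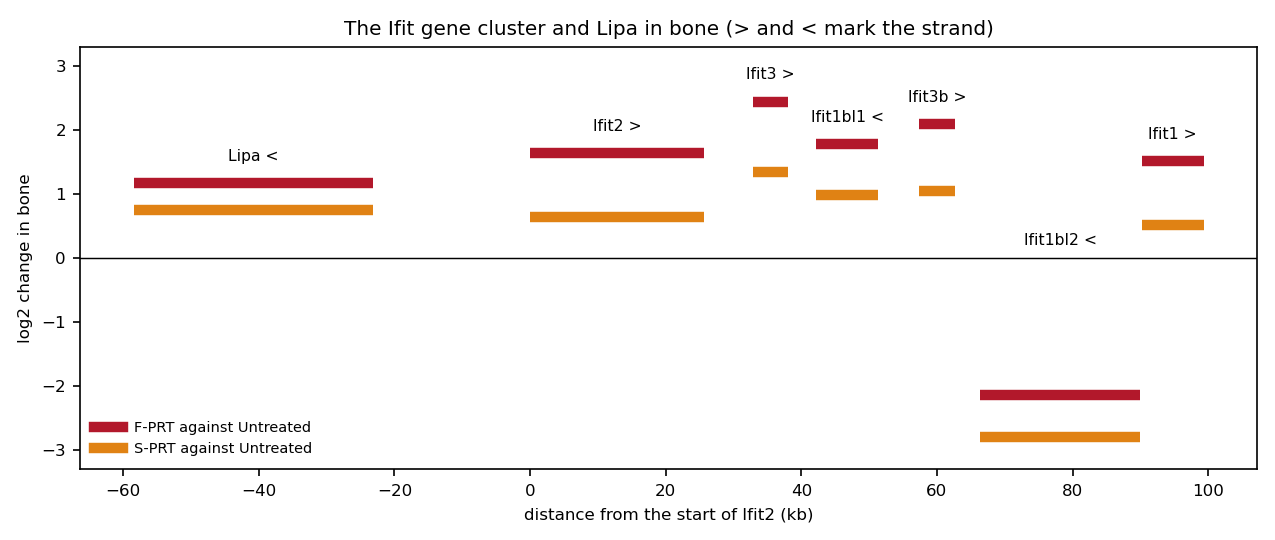
Genes of the Ifit cluster and Lipa by distance from the start of Ifit2 in kilobases (horizontal axis) and log2 change in bone (vertical axis); each gene is drawn over its length, for F-PRT and S-PRT against Untreated. Ifit1bl2 lies below 0 at -2.14 and -2.80 between Ifit3b and Ifit1, which lie above 0.

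The 4 members followed each other closely over libraries. Over the 12 bone libraries Pearson's r between pairs of members, on log2 CPM, ran from 0.93 to 0.97, and over the 12 skin libraries from 0.74 for Ifit1 with Ifit3b to 0.97 for Ifit1 with Ifit2. These values describe libraries that share their treatment groups and are given without a test. Of 13846 genes in bone with a mean of at least 1 CPM, those most like the family profile were Xaf1 (r = 0.99), Irgm1 (0.99), Ifit1bl1, H2-T22, Ifi211 and Ifi44 (0.98 each). Of 13866 genes in skin they were Ms4a4c (r = 0.97), Nrd1 (0.96), Rtp4 (0.96), Meis3, Siglec1 and Zbp1 (0.95 each). Siglec1, which encodes the macrophage receptor sialoadhesin, changed 2.53-fold after F-PRT in skin without passing (adjusted p = 0.123), and Ms4a4c 4.14-fold (0.125). No gene was among the 6 most alike in both tissues.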

How the data were processed

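The authors deposited RSEM gene tables for 24 libraries, with expected counts and TPM per the file headers. FastQC, cutadapt, STAR, RSEM and build GRCm38 are named in the submitters' processing notes; their versions are not stated in the sources used here. Expected counts were rounded to whole numbers and tested with edgeR 4.0.16 in R 4.3.3 (quasi-likelihood F test, TMM scaling, filterByExpr, Benjamini-Hochberg adjustment over all genes, threshold 0.05) on the 12 libraries of a tissue, or on all 24 for differences between tissues. The deposited TPM entered no test and served for levels between genes and marker sums. Log2 CPM values used a prior count of 2. GENCODE M21 named 55230 of 55471 identifiers (99.57%), and sequences came from RefSeq (GRCm38.p6). The workflow was tested on simulated counts. Replicates of a group differed by more than counting noise in every pair (chi-square per degree of freedom at least 9.54).

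The members, the pathway, neighbour and marker lists and the tests were chosen with earlier results of these data known. Named were the members, up to 3 genes of smallest p of each list and tissue for both beams against Untreated, and the 6 genes most alike in profile, except 1 gene that is not reported here; Slfn4 and the antiviral targets that fell were added after their values were seen. Alternatives were DESeq2 1.42.0, RLE scaling, limma 3.58.1 voom with quality weights, no filter, at least 1 CPM in 4 libraries, Ifit3 and Ifit3b summed, only the groups compared, a replicate block, leaving out each library, and leaving out together 5 libraries that an earlier analysis of these data doubted (Untreated 1 of each tissue, replicates 2 and 3 of bone F-PRT, and replicate 4 of skin S-PRT). P-values set the difference between groups against the spread between libraries that the labels call biological replicates.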

Additional observations from a re-analysis of the deposited data

Results flagged for a closer look

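In 3 of 24 sets of 4 libraries (each member in each group) 1 library lay far from the other 3 by Dixon's criterion, which chance meets in about 1 in 20 sets. Ifit1 in skin Untreated 3 had 2.06 CPM, against 3.71 to 3.95 CPM in the other untreated skin libraries. Ifit2 in the same library had 2.30 CPM, against 3.42 to 3.59 CPM. Ifit3 in bone S-PRT 2 had 14.4 CPM, against 25.7 to 27.5 CPM in the other S-PRT bone libraries, and that library also had the lowest macrophage sum of its group, 431 TPM, against 705 to 835 TPM. The part of the marker sums in these values was not tested.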

How the results depend on the processing

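Over 48 changes of single members and 1180 alternative values, 1071 kept their direction and side of the threshold, 27 lost a call, 51 gained one and 31 changed sign, the last all in skin F-PRT against S-PRT or in the differences between tissues; the causes were not tested. In skin F-PRT against Untreated DESeq2, voom and the fit on only the groups compared called 3 members and the fit without the 5 libraries in doubt 4, against 0, and leaving out 1 library gave 0 to 3. In skin S-PRT against Untreated DESeq2 and voom called 3 and the fit without the 5 libraries 4, against 0, and leaving out 1 library gave 0 to 4. For both beams in skin, 2 members became 1 with Ifit3 and Ifit3b summed, 4 without the 5 libraries and 0 to 4 on leaving out 1. In bone F-PRT against S-PRT DESeq2 and the fit with no filter called 3 members, against 0. For the F-PRT effect in skin minus bone only the groups compared gave 1, against 0, and leaving out 1 library 0 to 1; for the S-PRT effect the fit without the 5 libraries gave 2, against 0, and leaving out 1 library 0 to 2.

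Changes of sign in skin F-PRT against S-PRT were Ifit1 0.0595 with the replicate block, Ifit3 -0.044 with voom and -0.21 without the 5 libraries, and Ifit3b -0.18 without them; leaving out 1 library gave -0.40 to 0.38 for Ifit1, -0.47 to 0.0921 for Ifit2, -0.21 to 0.35 for Ifit3 and -0.18 to 0.75 for Ifit3b. For the F-PRT effect in skin minus bone Ifit1 was 0.13 with voom and 0.18 without the 5 libraries (-0.24 to 0.13 on leaving out 1). For the S-PRT effect Ifit3 was 0.32 with voom and 0.49 without the 5 libraries (-0.41 to 0.15), and Ifit3b 0.0692 and 0.46 (-0.88 to 0.0556).

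Same-numbered libraries deviated together, with a correlation over 0.1, in 3 of 12 pairs of groups and numbers in bone. This held for 7 of 12 in skin and 1 of 12 between skin and bone, with correlations from -0.34 to 0.37. Each deviation was taken from a mean of 4 libraries, so these values cannot decide whether the numbers pair the samples. The replicate block called 1 member for both beams in skin, against 2, and the same number of members as without it in each other comparison. Over all genes skin F-PRT against Untreated gave 455 calls, but 940 by DESeq2, 2623 by voom, 1215 on only the groups compared, 2704 without the 5 libraries and 299 with the block; skin S-PRT gave 827, but 1487, 3102, 305 and 4509 by the first 4 of these. Both beams in skin gave 1047, but 1724 by DESeq2, 3971 by voom and 4855 without the 5 libraries. The F-PRT effect in skin minus bone gave 2212, but 4203 by voom and 1236 with the block, and the S-PRT effect 1961, but 3460 by voom, 3655 without the 5 libraries, 1090 with the block and 1103 on only the groups compared. In bone F-PRT against S-PRT the 1 call became 0 with the block and on only the groups compared. Among the members expected counts were lowest for Ifit3b in skin, at 5.25 to 106 per library.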
